A study of Mus musculus with 4 samples.

Results

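The 7 genes described here are serpins grouped as inhibitors of proteases of cytotoxic granules and lysosomes: Serpinb9, Serpinb9b, Serpinb6b, Serpinb6a, Serpinb1a, Serpina3g and Serpina3f. They were taken by name for this role, and all 7 were found among the 35275 genes of the deposited table. RNA was sequenced from mouse DNT cells, short for double-negative regulatory T cells, which are αβ T cells without CD4 and CD8 that can restrain other immune cells. There were 2 libraries from cells of OX40-knockout mice and 2 from wild-type cells, all of strain C57BL/6, and OX40 is the costimulatory receptor encoded by Tnfrsf4. In both groups the DNT had been made from naive CD4 T cells and sorted for carrying CD3 with TCRαβ and for lacking CD4, CD8 and NK markers. Age is not given in the labels, nor is the part of Tnfrsf4 that was removed, nor whether each library had its own animal or culture. The spread between libraries, which the p-values rest on, may thus be technical.

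A serpin is a bait for a protease. The enzyme cuts an exposed stretch of the serpin, the reactive centre loop, and the loop then springs into the body of the serpin and traps the enzyme in a dead complex. Killer lymphocytes load granules with granzymes, and serpins in their own cytosol are known to protect them when granules leak. In the mouse, Serpinb9 (Spi6) inhibits granzyme B, Serpinb6b inhibits granzyme A and Serpinb9b inhibits granzyme M. Serpinb6a (Spi3) and Serpinb1a inhibit neutrophil-type proteases such as cathepsin G, and Serpinb1a also inhibits elastase. Serpina3g (Spi2A) inhibits the lysosomal cathepsins B and L, and Serpina3f is its close neighbour in the genome.

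The loop decides which protease is caught, so its coding sequence shows how these genes differ. The stretches below are 75 coding bases each from GENCODE vM21 transcripts (build GRCm38), starting at the hinge. The 21 bases in capitals mark the hinge, found as the codons for glutamate, any residue, glycine, a small residue, any residue and 2 small residues. Each stretch lies within the last exon of its transcript.
Serpinb9: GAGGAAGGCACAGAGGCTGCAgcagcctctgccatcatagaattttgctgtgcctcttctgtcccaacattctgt
Serpinb9b: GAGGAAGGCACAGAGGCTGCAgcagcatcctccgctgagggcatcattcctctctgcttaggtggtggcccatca
Serpinb6b: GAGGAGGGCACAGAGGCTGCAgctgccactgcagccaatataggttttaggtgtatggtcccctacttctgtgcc
Serpinb6a: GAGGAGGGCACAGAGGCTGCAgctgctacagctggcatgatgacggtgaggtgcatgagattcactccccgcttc
Serpinb1a: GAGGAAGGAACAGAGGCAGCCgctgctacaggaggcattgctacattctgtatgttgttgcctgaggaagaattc
Serpina3g: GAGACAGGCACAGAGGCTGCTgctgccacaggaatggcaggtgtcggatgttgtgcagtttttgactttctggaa
Serpina3f: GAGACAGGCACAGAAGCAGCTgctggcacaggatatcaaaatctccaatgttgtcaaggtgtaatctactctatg
The stretches lie at chr13:33015693-33015767 (plus strand) for Serpinb9, chr13:33039796-33039870 (plus) for Serpinb9b, chr13:32978201-32978275 (plus) for Serpinb6b, chr13:33918125-33918199 (minus) for Serpinb6a, chr13:32842902-32842976 (minus) for Serpinb1a, chr12:104241066-104241140 (plus) for Serpina3g and chr12:104220239-104220313 (plus) for Serpina3f. Serpinb9 and Serpinb9b had the same base at 21 of 21 hinge positions, and at 17 of the 54 positions that follow when compared without gaps. Over whole coding sequences these neighbours matched at 86.4% of aligned bases. Serpinb6a and Serpinb6b matched at 86.3% of coding bases and at 27 of the 54 loop positions after the hinge. Serpina3f and Serpina3g matched at 87.4% of 744 aligned bases and at 28 of 54. The Serpina3g transcript used codes for 744 bases in all and that of Serpina3f for 1335, so the rest of Serpina3f was not compared. In each pair the coding length from hinge to stop differs. Serpinb9 and Serpinb9b, both with the hinge at codon 324, have 374 and 377 codons with the stop. Such a difference can put the loops out of register when no gaps are allowed. The ungapped loop counts thus cannot be set against the aligned coding identities.

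Copies this close can share reads. Of the 50-base windows in the transcripts of Serpinb9, 0.378% also occurred in a transcript of another gene. The share was 2.81% for Serpinb1a, 2.92% for Serpinb6b and 5.38% for Serpinb9b. It was 10.6% for Serpina3f and 15.5% for Serpina3g, whose windows are shared with each other and with further Serpina3 copies. It was 25.1% for Serpinb6a, with 715 of its 1440 shared windows found in Nqo2. The sources used here do not say how such reads were counted, so the values of the Serpina3 pair and of Serpinb6a are the least certain.

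The libraries held between 22220888 and 24395743 reads. They also differed within each group: 578 of the 11625 genes tested were at least 2-fold apart between the OX40-knockout libraries and 132 between the wild-type libraries, on the scale of log2(RPKM + 1). RPKM is the read number scaled to transcript length and library size. Cd3e was abundant, at 328 and 248 RPKM in OX40-knockout 1 and 2 and 332 and 280.3 RPKM in wild-type 1 and 2. Of the markers sorted against, Cd4 was at 10.1 and 2.06 RPKM in knockout cells, against 0.82 and 1.97 RPKM in wild-type cells. Cd8a was at 16.6 and 9.03 against 10.5 and 10.4 RPKM, and Cd8b1 at 4.44 and 2 against 3.37 and 2.49 RPKM. Klrb1c (NK1.1) was at 42.8 and 159 against 98.5 and 159.7 RPKM. Tnfrsf4 was still read in the knockout libraries, at 12.1 and 9.38 RPKM, against 18.2 and 12.3 RPKM in wild-type libraries. Its log2 change of -0.46 was not called (limma adjusted p = 0.975), so groups are named as the labels give them.

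4 of the serpins were among the abundant transcripts of these cells, each higher than at least 91.7% of the 20996 genes read in any library. By deposited RPKM, Serpina3g was highest in every library. Serpinb9, Serpinb6b and Serpinb6a followed at 70.6 to 166 RPKM, and Serpina3f, Serpinb9b and Serpinb1a lay between 7.9 and 35.1 RPKM. The rest of the family was nearly silent. Of 68 serpin genes in the table only 10 reached a mean of 1 RPKM, the 7 described here among them, and 33 were listed at 0 in all 4 libraries. The closest copies of the 7, such as Serpinb1b at 0.345 and 1.41 RPKM in knockout libraries against 1.07 and 1.16 RPKM in wild-type libraries, all averaged under 1 RPKM. Serpine2, an inhibitor of thrombin and plasminogen activators, was the highest of the others at a mean of 17.9 RPKM.

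**Figure D1:**
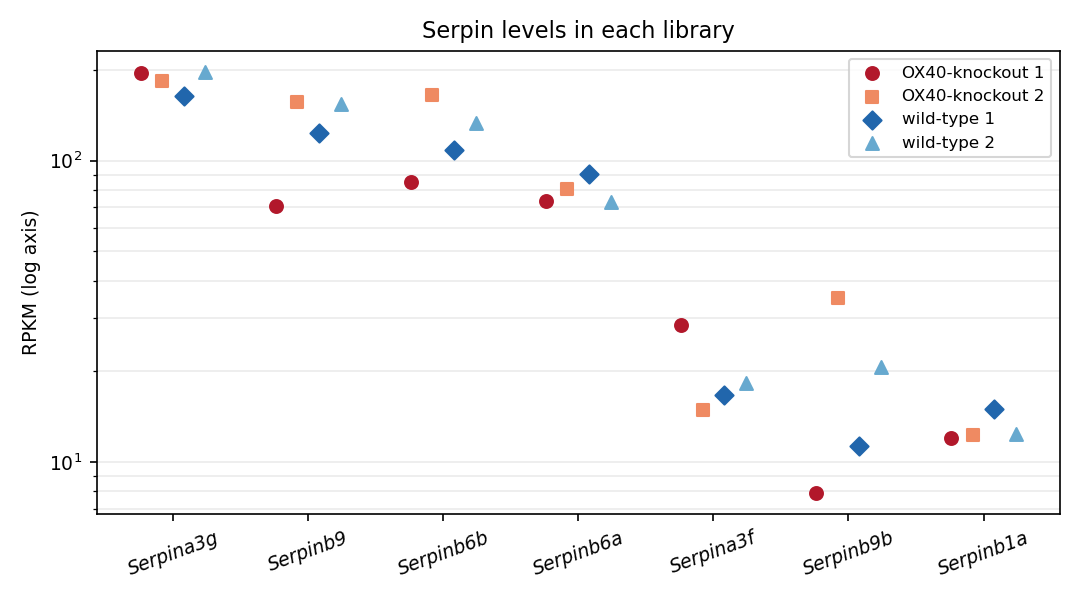
RPKM of the 7 serpins on a log axis, 1 point per library, with OX40-knockout libraries left of wild-type libraries. Serpina3g stays between 164 and 197 RPKM, while Serpinb9b spreads from 7.9 RPKM in OX40-knockout 1 to 35.1 RPKM in OX40-knockout 2.

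The order at the top depended on transcript length. The values of each member were whole reads, within 3e-04 read, divided by 1 whole length, for Serpinb6b only up to a whole multiple. For Serpina3g it was 980 bases, the mean over all its annotated transcripts, short fragments included. Its full protein-coding transcript, here the one with the longest complete annotated coding sequence, has 1803 bases. Of these 744 code, against 1335 coding bases for Serpina3f, so its rescaled values depend on this annotated transcript. For Serpinb6a the deposited length was 987 against 1504 bases, for Serpinb6b 1957 against 2193 bases, and for Serpinb9 3435 against 3472 bases. Rescaled to the full protein-coding transcript, a choice made after seeing the data, the mean over 4 libraries was 125 RPKM for Serpinb9, 109.8 for Serpinb6b, 101 for Serpina3g and 52.1 for Serpinb6a, where the deposited means were 126, 123, 185 and 79.4 RPKM. Serpinb9 then ranked first in 3 libraries and Serpina3g in OX40-knockout 1. Comparisons of 1 gene between libraries are not touched by this, since its length is the same in each.

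**Figure D2:**
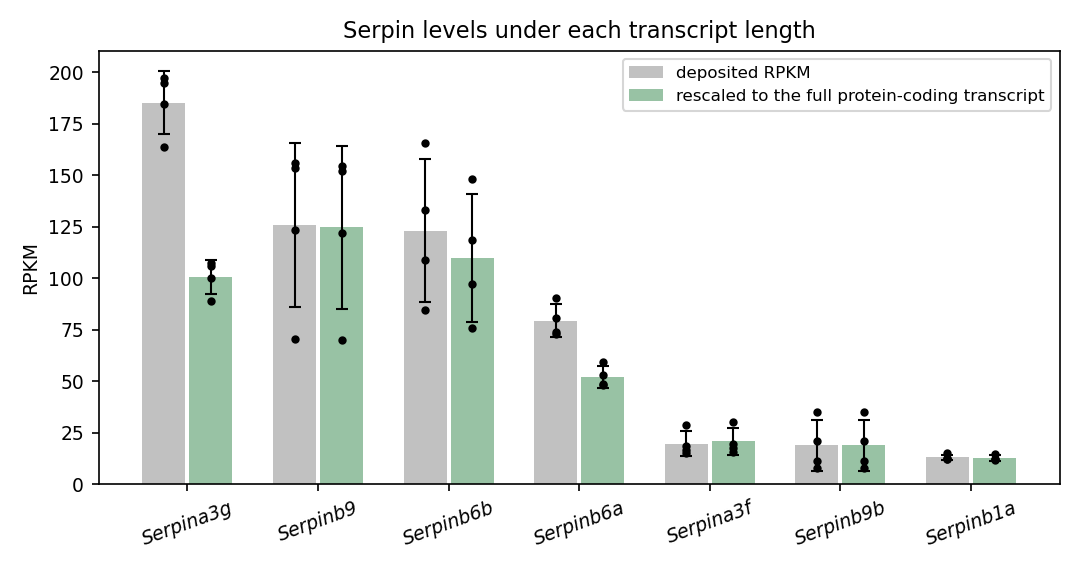
Mean RPKM of each serpin over the 4 libraries with SD (bars and whiskers) and single libraries (points), as deposited and rescaled to the full protein-coding transcript. Serpina3g stands at 185 RPKM as deposited and 101 RPKM rescaled, and Serpinb9 at 126 and 125 RPKM.

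The comparison of genotypes asked whether loss of OX40 changes the cells' expression of these inhibitors. None of the 7 passed the test. limma called 0 of 11625 genes at an adjusted p under 0.05 (0.0% of genes), and 162 genes (1.39%) had an unadjusted p under 0.05, with no serpin of the 7 among them. By mean change 3 members were higher and 4 lower in the knockout libraries, with a median log2 change of -0.02, beside 5051 genes higher and 6574 lower and a median of -0.03 over all genes tested. All 7 lay above 1 RPKM in every library, so none entered through 1 group alone. Only Serpinb1a had groups that did not overlap, 1 of 7 members, beside 26.4% of all genes tested. It was lower in both knockout libraries, as were 17.8% of genes, and 0 of 7 members were higher in both, as were 8.66% of genes. OX40-knockout 1 was the lowest library for 4 of 7 members and for 42.7% of genes. In sorted bulk cells, fewer cells of a type and less RNA per cell cannot be told apart.

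Among the granzyme inhibitors, Serpinb9 was at 70.6 and 156 RPKM in OX40-knockout 1 and 2 and at 123 and 154 RPKM in wild-type 1 and 2. OX40-knockout 1 stood apart and OX40-knockout 2 lay beside wild-type 2. Counting error was small against this gap, with exact 95% Poisson intervals of 68.7 to 72.5 RPKM in OX40-knockout 1, from 5387 reads, and 153 to 159 RPKM in OX40-knockout 2, from 12103 reads. These intervals cover counting error only. Group means were 113 ± 60.5 RPKM in the knockout and 139 ± 21.4 RPKM in the wild-type (SD, n = 2 each). The log2 change of -0.39 (SE 0.39, 95% interval -1.41 to 0.64) was not called by limma (adjusted p = 0.975). The interval reaches from 0.376 to 1.55 of the wild-type level, so the values are compatible with a sizeable fall, no change or a rise. Without OX40-knockout 1 the log2 change was 0.18, and without OX40-knockout 2 it was -0.95, each with 1 knockout library left.

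Serpinb6b, the inhibitor of granzyme A, followed the same order of libraries. It was at 84.7 and 166 RPKM in OX40-knockout 1 and 2, against 109 and 133 RPKM in wild-type 1 and 2. The knockout libraries were the lowest and the highest of the 4, and the wild-type libraries lay between them. The log2 change was -0.02 (SE 0.34, 95% interval -0.90 to 0.86; limma adjusted p = 0.994). It was 0.46 without OX40-knockout 1 and -0.50 without OX40-knockout 2, and without wild-type 2 it was 0.12.

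Serpinb9b, the inhibitor of granzyme M, varied most. It was at 7.9 RPKM in OX40-knockout 1, from 571 reads, and at 35.1 RPKM in OX40-knockout 2, from 2578 reads, against 11.3 and 20.7 RPKM in wild-type 1 and 2. The highest library was 4.44-fold above the lowest, where Serpinb9 spanned 2.21-fold, and both extremes were knockout libraries. Group means were 21.5 ± 19.2 RPKM in the knockout and 16 ± 6.66 RPKM in the wild-type (SD, n = 2 each). The log2 change of 0.13 had a 95% interval from -1.73 to 2.00 (SE 0.71, limma adjusted p = 0.985), so these libraries place almost no bound on its genotype difference. It was 1.14 without OX40-knockout 1 and -0.88 without OX40-knockout 2. Without wild-type 1 it was -0.28, and without wild-type 2 it was 0.54.

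**Figure D3:**
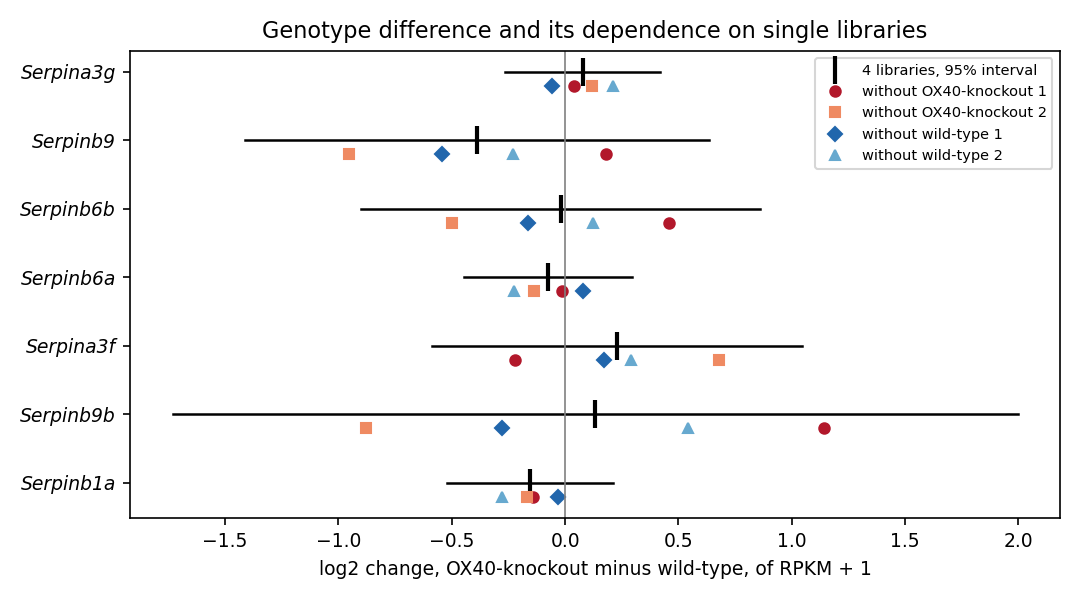
log2 change of each serpin, OX40-knockout minus wild-type, with its 95% interval from limma (black), and below it the value with 1 library left out (coloured by that library). For Serpinb9b the values run from -0.88 without OX40-knockout 2 to 1.14 without OX40-knockout 1, on both sides of 0.

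The inhibitors of cathepsin G and elastase were steadier. Serpinb6a was at 73.8 and 80.4 RPKM in OX40-knockout 1 and 2 and at 90.3 and 73 RPKM in wild-type 1 and 2, so the knockout values lay within the wild-type range. Its log2 change was -0.07 (95% interval -0.45 to 0.30; limma adjusted p = 0.975). Serpinb1a was at 12 and 12.3 RPKM in the knockout and at 15 and 12.4 RPKM in wild-type libraries. Wild-type 1 alone stood higher, and the other 3 libraries differed by less than their counting intervals, which reached from 11 to 13.5 RPKM. Its log2 change was -0.16 (95% interval -0.52 to 0.21; limma adjusted p = 0.975). It was -0.03 without wild-type 1, -0.28 without wild-type 2 and -0.0631 with a correction for GC content.

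The Serpina3 pair did not move together. Serpina3g was at 195 and 184 RPKM in OX40-knockout 1 and 2 and at 164 and 197 RPKM in wild-type 1 and 2, a span of 1.2-fold, with a log2 change of 0.08 (95% interval -0.27 to 0.42; limma adjusted p = 0.975). Serpina3f was at 28.6 and 14.9 RPKM in the knockout and at 16.7 and 18.3 RPKM in wild-type libraries. It was the only member that was highest in OX40-knockout 1, the library in which 36.9% of genes tested were highest. Its log2 change was 0.23 (95% interval -0.59 to 1.04; limma adjusted p = 0.975). It was -0.22 without OX40-knockout 1 and 0.68 without OX40-knockout 2.

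The members differed most in how far the knockout libraries lay apart. On the log2 scale, OX40-knockout 2 minus OX40-knockout 1 was 2.02 for Serpinb9b, 1.13 for Serpinb9, 0.96 for Serpinb6b and -0.90 for Serpina3f, and between -0.08 and 0.12 for the other 3. Between the wild-type libraries the gap was 0.82 for Serpinb9b and at most 0.31 in size for the others. Serpinb9, Serpinb9b and Serpinb6b had the same order of libraries, lowest in OX40-knockout 1, then wild-type 1, wild-type 2 and OX40-knockout 2. That order, noticed after the values were seen, was held by 3 of 7 members and by 9.2% of all genes tested. It was also held by 9 of 21 tested genes of the protease list, which holds granule and lysosome proteases and the caspases Casp1 and Casp4. Gzmg and Gzmc were among the 9, and Prf1 held the order too. Gzmg was at 356 and 3591 RPKM in the knockout and at 903 and 2266 RPKM in wild-type libraries. Prf1, which encodes the pore-forming perforin, was at 355 and 1182 against 574 and 856 RPKM. 2 of the 7 serpins, Serpinb9 and Serpinb9b, were at least 2-fold higher in OX40-knockout 2 than in OX40-knockout 1, where 3.2% of genes tested were.

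**Figure D4:**
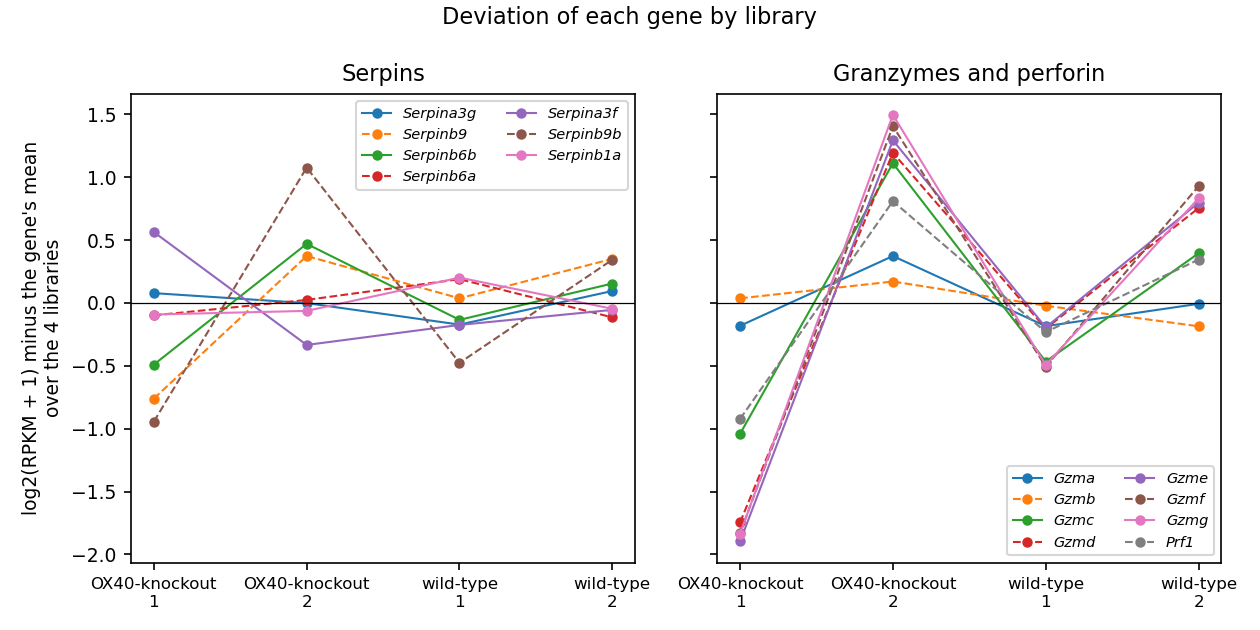
Deviation from the 4-library mean of a gene, in log2(RPKM + 1), for the 7 serpins (left) and for granzymes and perforin (right), with lines that only link the points of 1 gene. Serpinb9b runs from -0.94 in OX40-knockout 1 to 1.08 in OX40-knockout 2 and Gzmc from -1.04 to 1.11, while Gzmb stays between -0.19 and 0.17.

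The genes whose deviations over the 4 libraries came closest to each serpin's were sought among 7003 named genes averaging 10 RPKM or more. With only 4 libraries such likeness is a description. For Serpinb9b the closest was Gzmc (root mean square difference 0.06 on the log2 scale), which encodes granzyme C and stood at 638 and 2837 RPKM in the knockout and 950 and 1726 RPKM in wild-type libraries. For Serpinb9 the closest were Ccl5, a chemokine of cytotoxic lymphocytes, at 0.06, and Klrd1, the CD94 receptor chain, at 0.07. For Serpinb6b they were Tcrg-V1, a T cell receptor gamma segment, at 0.04 and Adamts14, a secreted metalloprotease, at 0.05. For Serpina3f it was Fbxw4 at 0.01, for Serpina3g Hsf1, the heat shock transcription factor, at 0.01, for Serpinb6a Acat2 and for Serpinb1a Slc25a24, both at 0.02. Serpina3g, Serpinb6a and Serpinb1a have small deviations, so many genes lie close to them.

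Genes listed as markers of other cell types and the base composition also differed between libraries. The library order of Serpinb9 was held by 2 of 9 tested NK cell markers and 1 of 5 tested neutrophil and mast cell markers. The 9 NK cell markers summed to 316 and 1100.5 RPKM in OX40-knockout 1 and 2 and to 567 and 969 RPKM in wild-type 1 and 2. 8 of the 9 were higher in both libraries numbered 2 than in both numbered 1 (24% of all genes tested), and none was at 0. The 14 neutrophil and mast cell markers summed to 32.6 and 141 RPKM in the knockout and to 33.2 and 140.1 RPKM in wild-type libraries, and 5 of the 5 tested were higher in both libraries numbered 2. Mcpt8, a basophil protease, was at 1.42 and 31.9 against 5.34 and 34.3 RPKM, and Cpa3, the mast cell carboxypeptidase, at 2.79 and 35.1 against 3.09 and 36.7 RPKM. The neutrophil protease genes Elane and Prtn3 stood at no more than 0.237 RPKM, with Prtn3 listed at 0 in OX40-knockout 1 and wild-type 1 and Elane in wild-type 1. The 12 dendritic and macrophage markers summed to 23.3 and 21.3 against 19.1 and 26.8 RPKM, with Siglech listed at 0 in all 4 libraries. The 10 αβ T cell markers summed to 3929 and 3489.6 against 3845 and 3476 RPKM. Serpinb9, Serpinb9b and Serpinb6b also belong to the low-GC group when genes are cut into 5 equal groups. Its genes had a median deviation of -0.18 in OX40-knockout 1, with 0.05 to 0.07 elsewhere, while their own deviations in OX40-knockout 1 were -0.76, -0.94 and -0.49. With a GC correction in the fit, the log2 change was -0.26 in place of -0.39 for Serpinb9 and 0.24 in place of 0.13 for Serpinb9b. For Serpinb6b it was 0.0862 in place of -0.02. Beyond that fit, the part of GC content in the serpin values was not tested. Whether the marker reads came from other cells or from the DNT themselves was not tested, nor was the part of such cells in the serpin values.

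Set against granzymes, the serpin transcripts were scarce. Gzmb was at 7506 and 8236 RPKM in OX40-knockout 1 and 2 and at 7206 and 6434 RPKM in wild-type 1 and 2, and Gzma at 6488 and 9530.1 against 6473 and 7323 RPKM. limma called neither (adjusted p = 0.975 for both). The 7 serpins summed to 472 and 649 RPKM in the knockout and to 529 and 608 RPKM in wild-type libraries. That was 3.38% and 3.65% of Gzma and Gzmb together in the knockout, against 3.87% and 4.42% in the wild-type libraries. These shares use the deposited lengths, which are short for Serpina3g and Serpinb6a, and would be lower at full coding length. Serpina3g alone made up 28.4% of the sum in OX40-knockout 2 and 41.2% in OX40-knockout 1. Transcript ratios do not give the ratio of the proteins.

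For the best-known pair, Serpinb9 stood at 0.94% and 1.9% of Gzmb in OX40-knockout 1 and 2 and at 1.71% and 2.39% in wild-type 1 and 2. The means were 1.42% ± 0.675 in the knockout and 2.05% ± 0.477 in the wild-type (SD, n = 2 each), and the values overlapped (exact two-sided permutation test, p = 0.667). The log2 ratio, knockout minus wild-type, was -0.60. It was -0.09 without OX40-knockout 1 and -1.10 without OX40-knockout 2, and -0.84 and -0.36 without wild-type 1 and 2. Against Gzma it was at 1.09% and 1.64% in the knockout and at 1.91% and 2.1% in the wild-type libraries, which did not overlap (exact permutation p = 0.333). That is the smallest p that 2 against 2 libraries can give. The log2 ratio of -0.58 was -0.29 without OX40-knockout 1 and -0.88 without OX40-knockout 2. Serpinb6b stood at 1.31% and 1.74% of its target Gzma in the knockout and at 1.68% and 1.82% in the wild-type libraries, which overlapped (exact permutation p = 0.667). Serpinb6b varied 1.96-fold over the libraries and its ratio to Gzma 1.39-fold. Against Gzma the span also narrowed from 2.21-fold to 1.93-fold for Serpinb9 and from 4.44-fold to 3.03-fold for Serpinb9b. Against Gzmb it widened to 2.54-fold for Serpinb9, but narrowed to 1.83-fold for Serpinb6b and 4.05-fold for Serpinb9b. Against either granzyme it widened for Serpinb6a, Serpinb1a, Serpina3f and Serpina3g.

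Of the 14 ratios of 7 serpins to Gzmb and Gzma, 12 had a lower mean log2 ratio in the knockout libraries and 3 had groups that did not overlap, all lower. These were Serpinb9 to Gzma, and Serpinb6a and Serpinb1a to Gzmb. Over all 14 the adjusted exact permutation p was 1 for each. Both knockout values of Gzmb exceeded both wild-type values, so ratios to it lean downward for any gene. The log2 change was 0.21 for Gzmb and 0.19 for Gzma, against a median of -0.03 over all genes tested. Mean ratios to both thus lean downward for most genes, and the share of all genes with a lower mean ratio was not counted. Of all genes tested, 48.7% were lower in both knockout libraries relative to Gzmb, and 32.2% relative to Gzma. The serpins, at 2 of 7 for Gzmb and 1 of 7 for Gzma, did not exceed these shares.

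**Figure D5:**
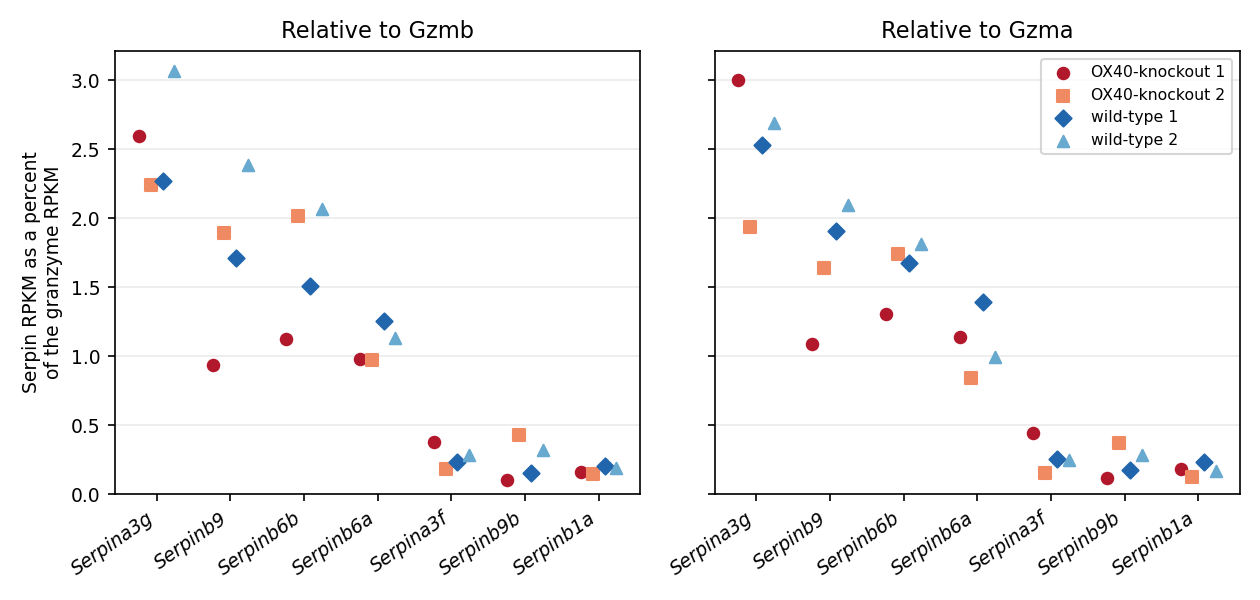
RPKM of each serpin as a percent of Gzmb (left) and of Gzma (right), 1 point per library. No serpin exceeds 3.07% of Gzmb in any library, and Serpinb9 lies lowest in OX40-knockout 1, at 0.94% of Gzmb and 1.09% of Gzma.

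Against other known targets most ratios were above 1, on the deposited RPKM scale. These targets were picked for the known pairings, after their values were seen. Gzmm, encoding granzyme M, was at 1.97 and 2.31 RPKM in the knockout and at 2.32 and 2.17 RPKM in wild-type libraries, so its inhibitor Serpinb9b stood 4.02- and 15.2-fold above it in OX40-knockout 1 and 2 and 4.87- and 9.55-fold in wild-type 1 and 2. Serpina3g stood 3.6- and 4.27-fold above Ctsb (cathepsin B) in the knockout and 3.78- and 4.96-fold in the wild-type libraries. Against Ctsl (cathepsin L), which was at most 2.79 RPKM, it stood 70- and 81.2-fold higher in the knockout and 86.1- and 120-fold in the wild-type libraries. These Serpina3g ratios use its short deposited length. Rescaled to the full protein-coding transcripts as defined above, its mean share of Gzmb was 1.4% in place of 2.54%. Ctsg (cathepsin G) was at 2.02 and 36.7 RPKM in the knockout and at 4.77 and 27.8 RPKM in wild-type libraries. Serpinb6a was above it in all 4 libraries. Serpinb1a was 5.95-fold above it in OX40-knockout 1 and 3.14-fold in wild-type 1. In OX40-knockout 2 and wild-type 2 Serpinb1a was at 0.335 and 0.448 of the Ctsg level. Serpinb1a itself stayed between 12 and 15 RPKM, so these ratios moved with Ctsg. Ctsg is also on the list of neutrophil and mast cell markers, and which cells gave its reads was not tested.

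Among 9 inhibitors of other classes, 3 cystatins lay at the levels of the abundant serpins. Cst7 (cystatin F), an inhibitor of granule cathepsins, was at 138 and 128 RPKM in the knockout and at 125 and 126 RPKM in wild-type libraries. Cst3 and Cstb, inhibitors of cysteine cathepsins, ranged from 67.2 to 122 RPKM. Slpi, a secreted inhibitor of neutrophil elastase, was at 2.13 and 12.9 RPKM in the knockout and at 2.24 and 21.4 RPKM in wild-type libraries, and the other 5 averaged at most 0.232 RPKM. Of 4 tested genes of that list 2 were higher and 2 lower on average, and none was called. Srgn, the proteoglycan that packs granzymes, was at 1075 and 808 against 841 and 769 RPKM. Of the 21 tested genes of the protease list, Casp1 and Casp4 included, 8 were higher and 13 lower, with a median log2 change of -0.05 and none called. Of 8 tested genes of granule release 2 were higher and 6 lower, with a median log2 change of -0.12 and none called.

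Promoters are shown for Serpinb9 and Serpinb9b, neighbours with the same order of libraries, and for Serpina3g and Serpina3f, neighbours that differed. The sequences are the 250 bases before the RefSeq start (build GRCm38.p6, plus strand), with matches to any of 6 motifs in capitals. The motifs, searched on both strands with overlaps kept, were GGG and CC with 5 bases between (NF-kB), TTCNNNGAA (the GAS element of STAT factors), GGTGTGA (T-box), TGANTCA (AP-1), TGTGGT (RUNX) and GAAA repeated with 2 bases between (the core of the interferon-stimulated response element).
Serpinb9: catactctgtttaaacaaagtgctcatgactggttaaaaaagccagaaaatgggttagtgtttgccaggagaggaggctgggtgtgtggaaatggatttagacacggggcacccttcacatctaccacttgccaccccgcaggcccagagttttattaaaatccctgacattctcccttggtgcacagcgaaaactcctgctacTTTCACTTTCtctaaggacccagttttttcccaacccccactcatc
Serpinb9b: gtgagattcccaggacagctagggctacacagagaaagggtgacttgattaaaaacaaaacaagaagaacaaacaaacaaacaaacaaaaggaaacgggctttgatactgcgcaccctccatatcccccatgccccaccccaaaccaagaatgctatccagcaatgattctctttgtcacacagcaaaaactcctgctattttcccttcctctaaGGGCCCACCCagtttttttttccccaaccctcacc
Serpina3g: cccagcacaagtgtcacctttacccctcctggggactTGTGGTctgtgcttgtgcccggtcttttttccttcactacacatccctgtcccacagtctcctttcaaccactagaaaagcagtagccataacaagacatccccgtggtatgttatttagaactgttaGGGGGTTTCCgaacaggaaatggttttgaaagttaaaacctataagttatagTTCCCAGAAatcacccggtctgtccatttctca
Serpina3f: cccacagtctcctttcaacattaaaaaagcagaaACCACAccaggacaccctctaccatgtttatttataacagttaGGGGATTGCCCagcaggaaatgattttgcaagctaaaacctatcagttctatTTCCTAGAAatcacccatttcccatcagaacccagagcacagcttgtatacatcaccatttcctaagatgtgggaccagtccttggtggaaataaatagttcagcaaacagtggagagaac
They lie at chr13:33004291-33004540, chr13:33027164-33027413, chr12:104235897-104236146 and chr12:104214294-104214543. RefSeq entries were found for 6 of the 7 members. The Serpinb9 promoter held a match to the interferon-stimulated core starting at -46 from the start site, a motif found in 2.98% of 32851 promoters of the same length, and the aligned Serpinb9b promoter, identical at 68.1% of 226 aligned bases, held none. Serpinb9b held a match to the NF-kB letters at -35, which 45.8% of promoters hold. Serpina3g and Serpina3f, identical at 82.6% of 161 aligned bases, each held matches to the NF-kB letters, to GAS (7.02% of promoters) and to RUNX (14% of promoters). The GAS match began at -33 in Serpina3g and at -121 in Serpina3f. This holds for the Serpina3f start that is shown. The window of its other RefSeq start, not shown, held no NF-kB letters, with GAS at -210 and RUNX at -46. A Serpinb6a window, not shown, also held the interferon-stimulated core, at -84, and GAS, at -77. The other Serpinb6a window held neither. No T-box or AP-1 letters, held by 3.33% and 6.75% of promoters, were found in any of the 8 member windows. A match is a description of letters and does not show that a factor binds.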

How the data were processed

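Total RNA of 2 OX40-knockout and 2 wild-type libraries was measured. Per the submitters' processing notes, Bowtie 0.12.2 and the build mm8 were used. How reads were counted, on which annotation and whether by strand, is not stated in those notes or the labels. The authors deposited 1 table of RPKM values, whose header names no unit. The unit was settled from low values, which were whole multiples of 1 read at annotated lengths and gave the library totals. GENCODE vM21 supplied symbols for 34490 of 35275 IDs. Its build is GRCm38, so coordinates belong only to the printed sequences.

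The test was limma 3.58.1 (R 4.3.3, empirical Bayes with a mean-variance trend, no block) on log2(RPKM + 1). It covered 11625 genes averaging 1 RPKM or more, with Benjamini-Hochberg adjustment over all of them and a threshold of 0.05. The +1 understates changes of low genes. Alternatives covered the pseudocount, filter, scaling, GC content, replicate number and each library left out. Ratios were compared with exact permutation tests. Whole reads were sought with a tolerance of 3e-04 read in Python 3.11.15. Sequences were aligned with Biopython 1.88.

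The members and gene lists were chosen with earlier results of these data known. Genes outside the 7 were named by rule: of each list the 3 of highest mean and the 1 of lowest p, and for each member its 2 closest genes by profile. Casp4, Serpine2, Cst7 and Lamp1 had the lowest p of their lists, with unadjusted limma p between 0.0967 and 0.457. Other genes named were picked as markers or known targets. B cell markers summed to 26.7 and 13 RPKM in the knockout and 15.9 and 14 RPKM in the wild-type libraries, γδ T cell markers to 422 and 419 against 408 and 404 RPKM, and CD4 and CD8 markers to 31.1 and 13.1 against 14.6 and 14.9 RPKM.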

Additional observations from a re-analysis of the deposited data

How the results depend on the processing

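No serpin was called under any of the 13 alternatives, 91 member values in all. Serpinb1a kept its direction under all 13, though with the GC correction its change of -0.16 became -0.0631. With that correction the log2 change was 0.24 in place of 0.13 for Serpinb9b and -0.26 in place of -0.39 for Serpinb9. With 1 library left out, the log2 change ranged from -0.95 to 0.18 for Serpinb9, -0.88 to 1.14 for Serpinb9b, -0.50 to 0.46 for Serpinb6b, -0.23 to 0.0772 for Serpinb6a, -0.22 to 0.68 for Serpina3f, -0.28 to -0.03 for Serpinb1a and -0.0567 to 0.21 for Serpina3g. The log2 ratio to Gzmb, knockout minus wild-type, then ranged from -1.10 to -0.09 for Serpinb9, -1.10 to 0.92 for Serpinb9b, -0.65 to 0.19 for Serpinb6b, -0.51 to 0.57 for Serpina3f and -0.35 to 0.0861 for Serpina3g. The ratio to Gzma ranged from -0.88 to -0.29 for Serpinb9, -0.87 to 0.73 for Serpinb9b, -0.70 to 0.80 for Serpina3f and -0.43 to 0.20 for Serpina3g. For Serpinb6a the range was -0.35 to -0.21 to Gzmb and -0.51 to -0.0245 to Gzma. For Serpinb1a it was -0.43 to -0.32 to Gzmb and -0.62 to -0.0966 to Gzma. The ratio of Serpinb6b to Gzma ranged from -0.42 to -0.0058. With 1 library left out a group of 1 is assumed to vary like the other. The change of Serpinb6b, at -0.02, became 0.0116 with TMM factors, 0.012 with median-of-ratios factors and 0.0862 with the GC correction, alone or with the replicate block. The cause was not tested.

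Over all genes limma called 0, and 1 with quantile normalization, 5 with the replicate block and 1 with the GC correction and the block. With a library left out it called between 0 and 1. The 1 came without wild-type 2. Genes at an unadjusted p under 0.05 numbered 162, and 603 with no filter, 373 with the block, 461 with the GC correction and the block, 524 and 3832 without OX40-knockout 1 and 2, and 77 and 76 without wild-type 1 and 2. The split of 64 higher and 98 lower became 85 and 80 with TMM or median-of-ratios factors, 79 and 82 with quantile normalization and 108 and 100 with the GC correction. The labels do not say that numbers pair libraries. Same-numbered libraries deviated together (correlation 0.47 over 11625 genes), and 2 pairs are too few to settle it. With 2 libraries a group, the intervals are wide, and for Serpinb1a, read 500 to 650 times, counting error also limits what can be seen.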
